A study of Mus musculus with 12 samples.

Results

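The proteasome subunit genes were taken as the entries of the deposited count table whose symbol begins with Psma to Psmg and a digit, without Psmb8 and Psmb9, and with at least 10 counts in 3 or more of the 12 libraries. Of 20347 gene entries, 49 matched the name, 2 were the excluded Psmb8 and Psmb9, and 1, Psmb11, stayed under the minimum with 2 to 8 counts per library. That left 46 genes, of 15396 entries that met the same minimum. All 46 are annotated as protein coding, and they lie on 16 chromosomes. One of them, Psmc3ip, carries the name of a binding partner and encodes no proteasome subunit.

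RNA was sequenced in bulk from brain hemispheres of male mice, 12 weeks old, that lack Lama4 (Lama4-/-), which encodes a laminin chain laid down around blood vessels, or are wild type (WT). In all mice the left middle cerebral artery was closed with a filament for 60 min and reopened for 24 h, so both genotypes and both hemispheres come from operated animals. The 4 groups of 3 libraries are Lama4-/- ipsilateral (the stroke side), Lama4-/- contralateral, WT ipsilateral and WT contralateral. Each library is a pool of 2 mice, and olfactory bulb and cerebellum were removed from the PBS-perfused brains. No unoperated or sham-operated mouse stands among these groups, so the contralateral hemisphere is the only reference for stroke. In whole hemispheres, a change in the number of cells of a type and a change of RNA per cell cannot be told apart.

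The 26S proteasome degrades proteins tagged with ubiquitin. Its 20S core is a barrel of alpha and beta rings, in which Psmb5, Psmb6 and Psmb7 encode the catalytic subunits, and its 19S cap holds a ring of ATPases that unfold the substrate, ubiquitin receptors and a deubiquitinase. Under interferon, Psmb8, Psmb9 and Psmb10 replace the catalytic subunits (the immunoproteasome) and Psme1 and Psme2 form the PA28 activator, while the factor encoded by Nfe2l1 raises many subunit genes together when proteasome activity is short. Proteasome activity in brain after ischaemia has long been studied, and inhibitors of it have been tried in rodent stroke models.

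Libraries held 27537167 to 44113824 counts. Lama4 measured 0.80, 0.22 and 0.58 CPM in Lama4-/- ipsilateral and 0.34, 0.31 and 0.21 CPM in Lama4-/- contralateral libraries, against 14.8, 14.7 and 14.5 CPM in WT ipsilateral and 10.8, 7.47 and 9.27 CPM in WT contralateral libraries. CPM here are counts divided by the library total, after scaling that total by edgeR's TMM factor. Differences are log2 fold changes with their standard error (SE) from edgeR's quasi-likelihood fit, and a gene was called where the p adjusted by Benjamini-Hochberg over all genes tested was under 0.05. All 46 genes were tested in each comparison.

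Summed markers of several cell types differed between the hemispheres, and their values are given here for all stroke results. The called counts below stand beside these shares of all 15351 genes tested. In Lama4-/- 12.8% were called higher and 10.5% lower, and in WT 9.91% higher and 5.47% lower. The 10 neuronal markers summed to 6988 to 8228 CPM in Lama4-/- ipsilateral, against 8825 to 9329 CPM in Lama4-/- contralateral libraries, and to 7704 to 7951 CPM in WT ipsilateral, against 8983 to 9296 CPM in WT contralateral libraries. Of those 10 markers, 6 were called lower in each genotype. The 8 astrocyte markers summed to 3157 to 3767 CPM in Lama4-/- ipsilateral, against 4244 to 4427 CPM in Lama4-/- contralateral libraries, and to 3344 to 3891 CPM in WT ipsilateral, against 4191 to 4724 CPM in WT contralateral libraries. Their sums were lower on the stroke side, although 1 of the 8 was called higher in each genotype. The sum of the 9 microglial markers ran the other way, at 508 to 534 CPM in Lama4-/- ipsilateral, against 363 to 449 CPM in Lama4-/- contralateral, and at 488 to 524 CPM in WT ipsilateral, against 336 to 395 CPM in WT contralateral libraries. Only 4 of the 9 were called higher in each genotype, and the list was mixed. At an unadjusted p under 0.05 by edgeR stood 66.7% of it in each genotype, with 44.4% higher in Lama4-/- and 55.6% higher in WT. In both genotypes C1qa, C1qb and C1qc were called higher, whereas P2ry12, a microglial receptor, was lower by edgeR in Lama4-/- (log2 fold change -1.06, adjusted p = 0.0164) and had -0.88 in WT (adjusted p = 0.0518). The 8 markers of monocytes and macrophages summed to 265 to 352 CPM in Lama4-/- ipsilateral, against 133 to 137 CPM in Lama4-/- contralateral, and to 229 to 280 CPM in WT ipsilateral, against 128 to 150 CPM in WT contralateral libraries. Of 7 tested, 7 were called higher in Lama4-/- and 5 in WT. The 8 endothelial markers summed to 269 to 376 CPM in Lama4-/- ipsilateral, against 178 to 231 CPM in Lama4-/- contralateral, and to 225 to 301 CPM in WT ipsilateral, against 179 to 209 CPM in WT contralateral libraries, with 3 called higher in Lama4-/- and 2 in WT. The 8 neutrophil markers summed to 7.45 to 22.3 CPM in Lama4-/- ipsilateral, against 5.84 to 7.08 CPM in Lama4-/- contralateral, and to 6.91 to 7.82 CPM in WT ipsilateral, against 6.44 to 7.06 CPM in WT contralateral libraries. Of 5 neutrophil markers tested, 3 were called higher in Lama4-/- and 0 in WT. The 8 lymphocyte markers stayed below 1 CPM in sum in every library. The 8 oligodendrocyte markers summed to 5035 to 6485 CPM in Lama4-/- ipsilateral and 4986 to 5775 CPM in Lama4-/- contralateral libraries. In WT these summed to 4333 to 6236 CPM ipsilaterally and 5007 to 5680 CPM contralaterally, with 2 called higher in each genotype. The 6 choroid plexus markers summed to 577 to 795 CPM in Lama4-/- ipsilateral and 579 to 876 CPM in Lama4-/- contralateral libraries. In WT these summed to 416 to 645 CPM ipsilaterally and 531 to 671 CPM contralaterally, and 0 were called higher in either genotype. No marker of these lists was at 0 in every library. At 0 in some were 7 of the lymphocyte genes, the neutrophil genes Cxcr2, Camp and Mmp8, and the monocyte gene Ly6c2. The part of these shifts in the proteasome results was not tested.

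The 4 members called higher on the stroke side in both genotypes were Psme2, Psmd11, Psmc6 and Psma3. Their promoters are shown for that reason, with Psmb5, which was not called, for contrast. Each window runs from 250 bases before to 50 bases after the annotated start (RefSeq, build GRCm38.p6) and is written 5′ to 3′ on the gene's strand. Capitals mark the antioxidant response element core TGACNNNGC, where factors such as those of Nfe2l1 and Nfe2l2 can bind, and the CCAAT box, on either strand.
Psmd11, chr11:80428365-80428664, plus strand: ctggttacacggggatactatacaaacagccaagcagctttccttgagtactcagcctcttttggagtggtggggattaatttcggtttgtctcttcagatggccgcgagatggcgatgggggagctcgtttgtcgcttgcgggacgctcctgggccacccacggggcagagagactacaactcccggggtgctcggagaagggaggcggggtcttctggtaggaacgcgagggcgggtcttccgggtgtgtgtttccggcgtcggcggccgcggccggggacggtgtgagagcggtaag
Psmc6, chr14:45329574-45329873, plus strand: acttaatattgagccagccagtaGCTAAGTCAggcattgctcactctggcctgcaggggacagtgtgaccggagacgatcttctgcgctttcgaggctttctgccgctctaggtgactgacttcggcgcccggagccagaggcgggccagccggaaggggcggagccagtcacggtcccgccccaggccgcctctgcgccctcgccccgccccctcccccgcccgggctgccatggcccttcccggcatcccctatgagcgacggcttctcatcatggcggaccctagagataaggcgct
Psma3, chr12:70974373-70974672, plus strand: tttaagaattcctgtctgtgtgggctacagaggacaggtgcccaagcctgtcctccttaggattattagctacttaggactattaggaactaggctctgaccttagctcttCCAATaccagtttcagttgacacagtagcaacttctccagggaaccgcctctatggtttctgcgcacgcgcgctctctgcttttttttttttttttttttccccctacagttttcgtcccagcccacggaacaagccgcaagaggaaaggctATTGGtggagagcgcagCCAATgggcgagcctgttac
Psme2, chr14:55590972-55591271, minus strand: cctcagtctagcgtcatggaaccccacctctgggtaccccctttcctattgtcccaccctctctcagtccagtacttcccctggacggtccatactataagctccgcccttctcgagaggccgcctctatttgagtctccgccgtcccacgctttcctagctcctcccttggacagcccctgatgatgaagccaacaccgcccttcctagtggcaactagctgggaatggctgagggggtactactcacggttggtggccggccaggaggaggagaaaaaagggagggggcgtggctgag
Psmb5, chr14:54617946-54618245, minus strand: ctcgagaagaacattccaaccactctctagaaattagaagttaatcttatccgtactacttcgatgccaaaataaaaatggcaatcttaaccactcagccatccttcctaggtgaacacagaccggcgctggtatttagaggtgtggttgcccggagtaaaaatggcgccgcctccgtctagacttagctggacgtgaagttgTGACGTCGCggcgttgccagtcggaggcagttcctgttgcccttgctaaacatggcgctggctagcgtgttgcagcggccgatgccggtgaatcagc
Psmc6 held 1 response element core, starting 227 bases before the start, and Psma3 held 3 CCAAT boxes, starting at -139, 13 and 30. Psmb5 held 1 response element core at -47, and the windows of Psmd11 and Psme2 held none of these letters. RefSeq gives a window for 38 of the 46 members, 41 windows in all, since some genes have a second start, Psme2 among them. The response element core was in 6 of those windows (14.6%; Psmb5, Psmb6, Psmc6, Psmd9, Psmd12 and Psme4), against 12.4% of the 32851 windows of all genes. CCAAT was in 13 windows (31.7%), against 37.4%. The heat shock element GAANNTTC was in 2 (4.88%; Psmb5 and Psmf1), against 7.86%, and the interferon-stimulated response element in 5 (12.2%; Psmb3, Psmd4, Psmd9, Psme1 and Psmg4), against 3.44%. All were searched on both strands, GAANNTTC reads the same on both, and a match is a description of letters, not of binding.

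In WT mice the proteasome genes were slightly higher on the stroke side. Summed over the 46 members, WT ipsilateral libraries held 3628, 3798 and 3782 CPM, against 3229, 3494 and 3362 CPM in WT contralateral libraries. The groups did not overlap, and the mean sum was 11.1% higher on the stroke side. In libraries of the same number the ratio of ipsilateral to contralateral was 1.12, 1.09 and 1.12.

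The Lama4-/- libraries were less even. They held 4167, 3617 and 3589 CPM on the stroke side, against 3427, 3862 and 3424 CPM contralaterally, a mean difference of 6.16% with overlapping groups. Library 1 was the highest on the stroke side and library 2 the highest contralaterally, so the ratio between libraries of the same number was 1.22, 0.936 and 1.05. These 2 libraries were high across the members: 41 of 46 had their highest value of the group in Lama4-/- ipsilateral 1, against 35.5% of all genes, and 41 of 46 in Lama4-/- contralateral 2, against 40.5% of all genes. In WT, contralateral library 1 had the lowest value of 33 of the 46 members, against 36.8% of all genes, and ipsilateral library 1 that of 38, against 32.2%. Between same-numbered libraries 44, 12 and 37 of the 46 members were higher on the stroke side in Lama4-/-, and 41, 44 and 41 in WT. No share of all genes stands beside these counts. The members are not independent, so the counts describe the libraries only.

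**Figure D1:**
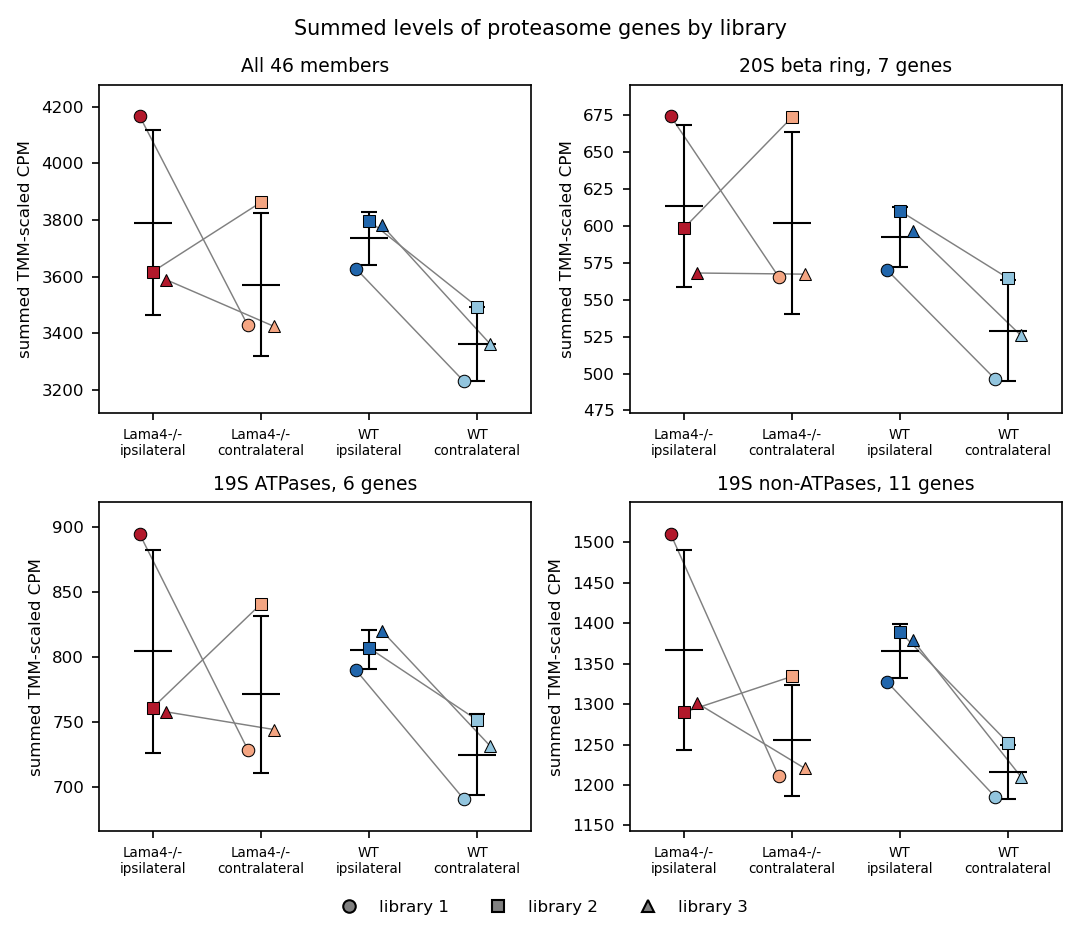
Summed TMM-scaled CPM (y axis, not starting at 0) of all 46 members, the 20S beta ring, the 19S ATPases and the 19S non-ATPases in the 12 libraries (x axis: group). Points are libraries, grey lines join hemispheres of the same library number, and black bars are mean ± SD of 3; the WT stroke side lies above WT contralateral in each panel, while Lama4-/- contralateral library 2 lies within the range of the Lama4-/- stroke side.

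**Figure D2:**
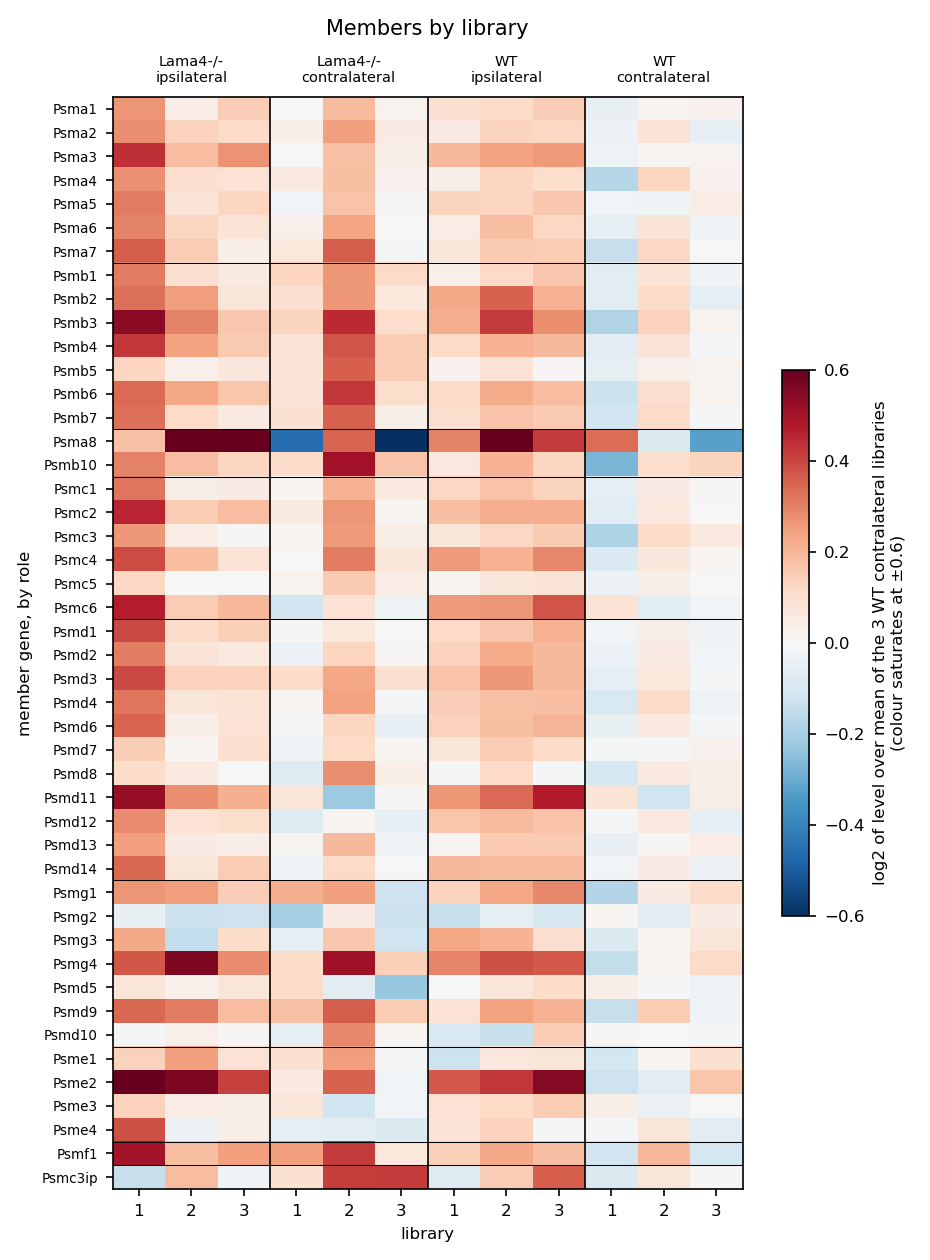
Each member (rows, by role) in each library (columns 1 to 3 of each group) as the log2 ratio of its TMM-scaled CPM to the mean of the 3 WT contralateral libraries. The columns of Lama4-/- ipsilateral 1 and Lama4-/- contralateral 2 are red over nearly all rows, and the WT ipsilateral columns are paler but red in most rows.

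Few single genes passed the test. In Lama4-/- mice 5 of 46 members (10.9%) were called higher on the stroke side, where 12.8% of all 15351 genes tested were, and none was called lower, where 10.5% of all genes were. In WT mice again 5 of 46 were called higher, beside 9.91% of all genes, and none lower, beside 5.47%. The share called higher was near the background in both genotypes. In WT this depended on the setting: 13 of 46 (28.3%) were called higher on the 6 WT libraries alone, beside 11.3% of all genes, and 28.3% with library totals in place of TMM, beside 14.1%. Their median log2 fold change was 0.08 in Lama4-/-, where the median of all genes was -0.01, and 0.16 in WT, where it was 0.01. Of the 46, 38 had a positive fold change in Lama4-/- and 44 in WT. At an unadjusted p under 0.05 and higher stood 9 in Lama4-/- (19.6%), against 18.3% of all genes, and 15 in WT (32.6%), against 16.9%. Each of these calls was lost when at least 1 library was left out. The count in Lama4-/- was 0 without Lama4-/- ipsilateral 1, where 9.1% of all genes were called higher, and 1 without Lama4-/- contralateral 1 (12.6% of all genes) or 3 (10.1%). In WT it was 0 without WT ipsilateral 3 (7.87% of all genes) and 1 or 2 without any other WT library (6.27% to 7.86%). Without Lama4-/- ipsilateral 1 the log2 fold changes in Lama4-/- were 0.35 for Psme2, 0.29 for Psmd11, 0.16 for Psma3 and 0.19 for Psmc6, which had 0.30 with it. Without WT ipsilateral 3 those in WT were 0.39, 0.30, 0.22 and 0.26 in the same order. The median in Lama4-/- was 0.01 without Lama4-/- ipsilateral 1, 0.05 without contralateral 1, 0.04 without contralateral 3 and 0.16 without contralateral 2, while in WT it stayed between 0.12 and 0.19.

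The groups of libraries were also compared by overlap. In WT, 25 of 46 members (54.3%) lay higher in every ipsilateral than in every contralateral library, against 21.2% of all genes, and none lay wholly lower, against 17.4%. In Lama4-/- this held for 7 members (15.2%), against 17.9% of all genes, and none lay wholly lower, against 17.6%. The members share their libraries and are not independent, so these shares describe these 12 libraries.

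**Figure D3:**
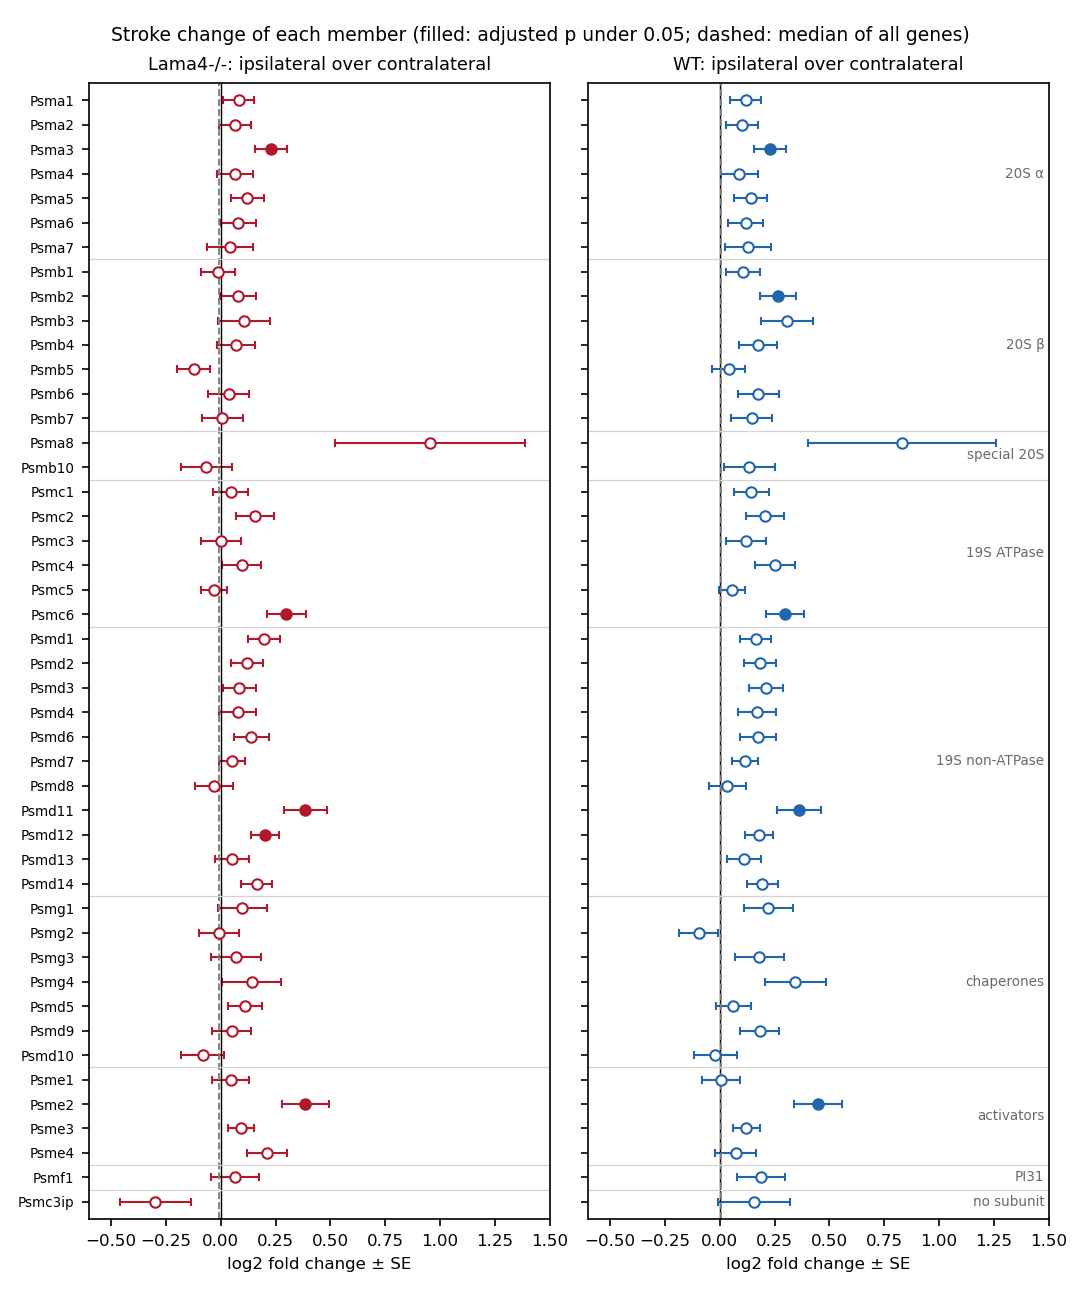
Log2 fold change ± SE (x axis) of ipsilateral over contralateral for each member (y axis, by role), in Lama4-/- (left) and WT (right). Filled points have an adjusted p under 0.05 (5 in each genotype), the solid line marks 0 and the dashed line the median of all genes; most WT points lie right of both lines.

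Psme2, which encodes the beta subunit of the PA28 activator, had the largest called change in WT and, level with Psmd11, in Lama4-/-. It measured 30.1, 29.2 and 26.3 CPM in Lama4-/- ipsilateral, against 20.6, 25.3 and 19.5 CPM in Lama4-/- contralateral libraries, and 25.5, 26.5 and 29.0 CPM in WT ipsilateral, against 18.1, 18.9 and 22.2 CPM in WT contralateral libraries. Every stroke-side library lay above every contralateral library of its genotype. The log2 fold change was 0.39 ± 0.11 (SE) in Lama4-/- (edgeR adjusted p = 0.0191) and 0.45 ± 0.11 in WT (adjusted p = 0.0133). A close copy, Psme2b, is in the mouse annotation and is not analysed here, so reads that fit both leave this value uncertain.

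Psme1, the alpha subunit that forms a ring with the product of Psme2, did not pass the test. It measured 38.3, 41.3 and 37.0 CPM in Lama4-/- ipsilateral, against 37.1, 41.4 and 34.5 CPM in Lama4-/- contralateral libraries, and 32.0, 36.4 and 36.7 CPM in WT ipsilateral, against 32.4, 35.1 and 37.1 CPM in WT contralateral libraries. The groups overlapped in both genotypes, with log2 fold changes of 0.04 ± 0.09 and 0.01 ± 0.09 (SE; edgeR adjusted p = 0.753 in Lama4-/- and 0.975 in WT).

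The other activators were not called. Psme3, which encodes the nuclear PA28 gamma, had 0.09 ± 0.06 on the log2 scale in Lama4-/- and 0.12 ± 0.06 in WT (SE; edgeR adjusted p = 0.302 and 0.208). It averaged 109.9 ± 4.24 CPM in Lama4-/- ipsilateral and 103.1 ± 6.66 CPM in Lama4-/- contralateral, and 113.5 ± 2.67 CPM in WT ipsilateral and 104.4 ± 2.72 CPM in WT contralateral libraries (SD, n = 3 each). Psme4, which encodes PA200, measured 103.2, 77.1 and 81.3 CPM in Lama4-/- ipsilateral and 75.9, 75.7 and 74.6 CPM in Lama4-/- contralateral libraries, so the stroke side lay above but with 1 library far from the others. In WT it measured 83.6, 87.2 and 78.7 CPM ipsilaterally and 78.7, 83.1 and 75.6 CPM contralaterally, which overlap, and neither change passed (edgeR adjusted p = 0.117 in Lama4-/- and 0.658 in WT). Psmf1, which encodes the inhibitor PI31, measured 50.5, 40.5 and 42.3 CPM in Lama4-/- ipsilateral and 42.4, 47.8 and 37.2 CPM in Lama4-/- contralateral libraries. In WT it measured 39.5, 41.8 and 40.5 CPM ipsilaterally and 33.0, 40.8 and 33.3 CPM contralaterally; both pairs overlapped (edgeR adjusted p = 0.715 in Lama4-/- and 0.280 in WT).

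Within the 19S cap, Psmd11 had the largest fold change in both genotypes. Its product is a scaffold subunit of the lid, and its amount has been tied to proteasome assembly in human stem cells. Psmd11 measured 61.9, 52.3 and 49.9 CPM in Lama4-/- ipsilateral, against 45.3, 37.0 and 43.3 CPM in Lama4-/- contralateral libraries, and 51.7, 54.5 and 59.9 CPM in WT ipsilateral, against 45.5, 39.6 and 44.1 CPM in WT contralateral libraries. Every stroke-side library lay above the contralateral ones, and Lama4-/- contralateral 2, high for most members, was the lowest of its group for this gene. The log2 fold change was 0.39 ± 0.10 (SE) in Lama4-/- (edgeR adjusted p = 0.0129) and 0.36 ± 0.10 in WT (adjusted p = 0.0264).

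Of the other 10 lid and base subunits without ATPase activity, Psmd12, a lid neighbour of the product of Psmd11, was called in Lama4-/- at 0.20 ± 0.06 (SE; edgeR adjusted p = 0.0351). It measured 116.4, 101.6 and 102.7 CPM in Lama4-/- ipsilateral, against 90.5, 96.2 and 92.3 CPM in Lama4-/- contralateral, and 107.2, 109.1 and 107.6 CPM in WT ipsilateral, against 94.9, 99.6 and 92.2 CPM in WT contralateral libraries. Its groups did not overlap in WT either, where the change of 0.18 ± 0.06 had an edgeR adjusted p of 0.0769. All 11 of these genes had positive fold changes in WT, with a median of 0.17 and a range of 0.04 to 0.36, and 10 of 11 in Lama4-/-, with a median of 0.12. Psmd14, the deubiquitinase of the lid, measured 105.1, 86.9 and 92.1 CPM in Lama4-/- ipsilateral, against 81.4, 89.5 and 83.0 CPM in Lama4-/- contralateral, and 94.8, 94.5 and 94.5 CPM in WT ipsilateral, against 81.8, 85.7 and 80.9 CPM in WT contralateral libraries. The Lama4-/- groups overlapped and the WT groups did not, and its 0.16 ± 0.07 in Lama4-/- and 0.19 ± 0.07 in WT missed the threshold (SE; edgeR adjusted p = 0.115 and 0.0836).

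The ubiquitin receptors of the cap were not called. Psmd4 measured 127.5, 107.6 and 108.4 CPM in Lama4-/- ipsilateral, against 103.4, 120.8 and 101.4 CPM in Lama4-/- contralateral, and 113.2, 115.6 and 116.0 CPM in WT ipsilateral, against 96.0, 110.6 and 100.2 CPM in WT contralateral libraries (edgeR adjusted p = 0.555 in Lama4-/- and 0.204 in WT). The Lama4-/- groups overlapped and the WT groups did not. Adrm1, a receptor without a Psm name, measured 48.6, 41.0 and 40.5 CPM in Lama4-/- ipsilateral, against 42.8, 44.3 and 40.5 CPM in Lama4-/- contralateral libraries, and 42.1, 44.04 and 43.1 CPM in WT ipsilateral, against 34.8, 39.4 and 36.9 CPM in WT contralateral libraries. Its WT groups did not overlap, at 0.22 ± 0.08 (SE; edgeR adjusted p = 0.0796, and 0.0391 with the replicate block), while in Lama4-/- it had 0.03 ± 0.08 (adjusted p = 0.832).

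Among the 6 ATPases that open the 20S gate, Psmc6 was called in both genotypes. It measured 87.4, 69.9 and 72.4 CPM in Lama4-/- ipsilateral, against 58.1, 67.0 and 61.6 CPM in Lama4-/- contralateral, and 75.2, 75.6 and 81.7 CPM in WT ipsilateral, against 66.7, 60.1 and 62.2 CPM in WT contralateral libraries. Stroke-side and contralateral libraries did not overlap, at 0.30 ± 0.09 (SE) in each genotype (edgeR adjusted p = 0.0234 in Lama4-/- and 0.0335 in WT). The others had -0.03 to 0.16 in Lama4-/- and 0.06 to 0.25 in WT, with Psmc5 the lowest in both, and none was called.

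**Figure D4:**
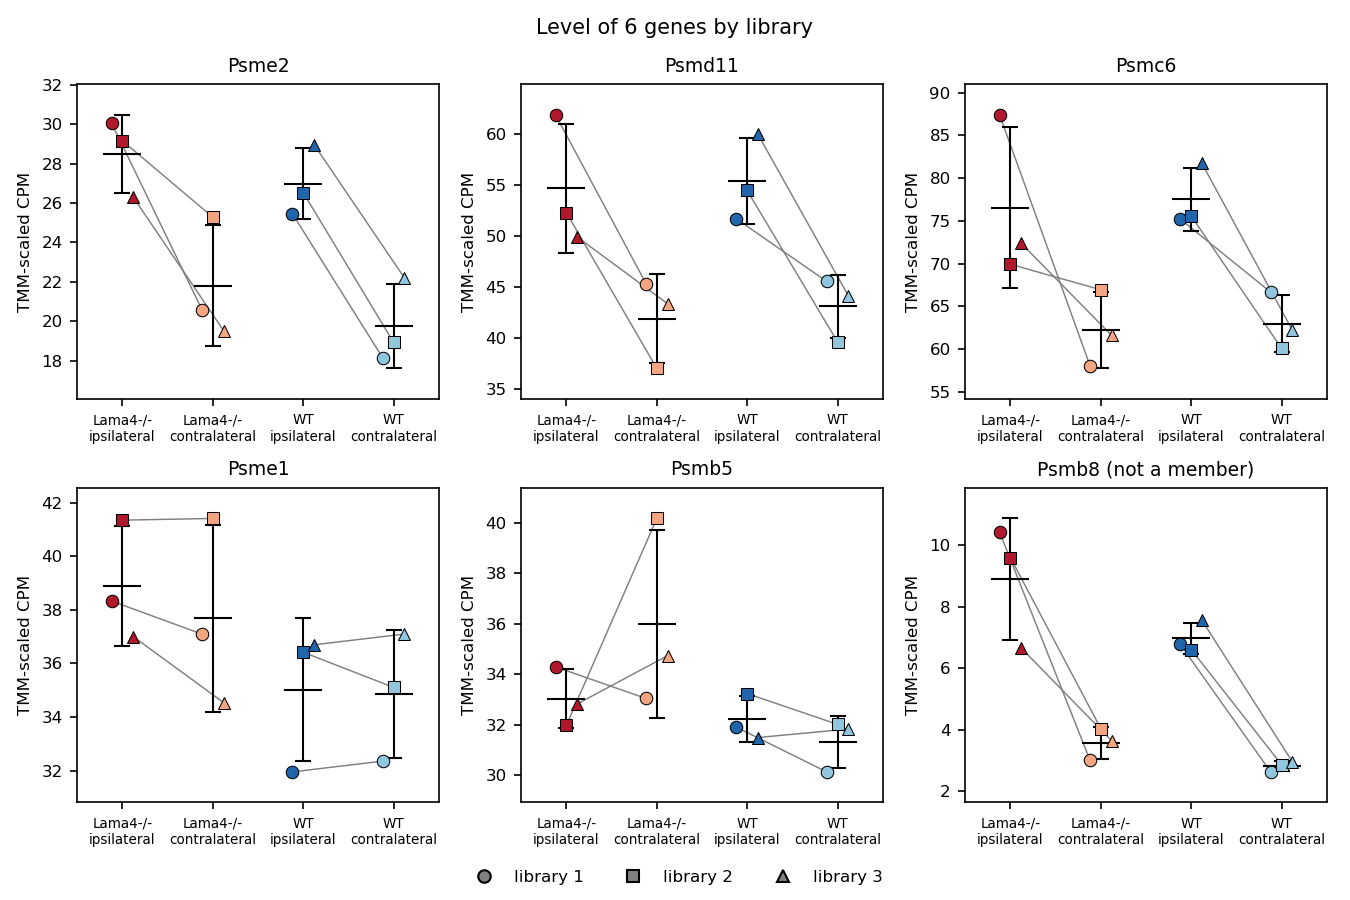
Level of Psme2, Psmd11, Psmc6, Psme1, Psmb5 and, for reference, Psmb8 (TMM-scaled CPM, y axes not starting at 0) in the 4 groups. Points are libraries, grey lines join hemispheres of the same library number, and black bars are mean ± SD of 3; Psme2, Psmd11, Psmc6 and Psmb8 separate the stroke side from the contralateral side in both genotypes, and Psme1 and Psmb5 do not.

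In the 20S core, 1 of the 7 genes of the alpha ring, which forms the gate, was called. Psma3 measured 67.4, 56.5 and 59.9 CPM in Lama4-/- ipsilateral, against 49.6, 56.2 and 51.0 CPM in Lama4-/- contralateral, and 56.8, 58.7 and 59.3 CPM in WT ipsilateral, against 48.7, 50.04 and 50.4 CPM in WT contralateral libraries. The groups did not overlap, though in Lama4-/- only by a narrow gap, and the change was 0.23 ± 0.07 (SE) in each genotype (edgeR adjusted p = 0.0357 in Lama4-/- and 0.0493 in WT, or 0.0515 in WT with the replicate block). The other 6 alpha genes had 0.04 to 0.12 in Lama4-/- and 0.09 to 0.14 in WT, and none was called.

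The catalytic beta subunits were not called. Psmb5, the chymotrypsin-like subunit, measured 34.3, 32.0 and 32.8 CPM in Lama4-/- ipsilateral, against 33.0, 40.2 and 34.7 CPM in Lama4-/- contralateral, and 31.9, 33.2 and 31.5 CPM in WT ipsilateral, against 30.1, 32.0 and 31.8 CPM in WT contralateral libraries. The groups overlapped, with -0.12 ± 0.08 in Lama4-/- and 0.04 ± 0.08 in WT (SE; edgeR adjusted p = 0.261 and 0.780). Psmb6, the caspase-like subunit, measured 101.0, 93.7 and 89.5 CPM in Lama4-/- ipsilateral, against 84.1, 107.1 and 85.9 CPM in Lama4-/- contralateral, and 86.4, 93.1 and 90.5 CPM in WT ipsilateral, against 72.8, 85.5 and 80.9 CPM in WT contralateral libraries. Its WT groups did not overlap but the change of 0.18 ± 0.09 missed the threshold (SE; edgeR adjusted p = 0.225), and in Lama4-/- it had 0.04 ± 0.09 (adjusted p = 0.815). Psmb7, the trypsin-like subunit, measured 142.7, 123.0 and 117.7 CPM in Lama4-/- ipsilateral, against 120.8, 145.0 and 116.0 CPM in Lama4-/- contralateral, and 121.9, 127.6 and 126.5 CPM in WT ipsilateral, against 104.6, 122.9 and 112.6 CPM in WT contralateral libraries. Both pairs of groups overlapped (edgeR adjusted p = 0.973 in Lama4-/- and 0.330 in WT). Pseudogenes of these 3 genes are in the mouse annotation and are not analysed here.

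Of the other beta genes, which shape the ring without cutting, Psmb2 was called in WT. It measured 66.9, 63.4 and 56.0 CPM in Lama4-/- ipsilateral, against 57.1, 63.9 and 55.6 CPM in Lama4-/- contralateral, and 62.3, 68.0 and 61.6 CPM in WT ipsilateral, against 50.9, 57.5 and 51.3 CPM in WT contralateral libraries. It did not overlap in WT, at 0.27 ± 0.08 (SE; edgeR adjusted p = 0.0456), and overlapped in Lama4-/-, at 0.08 ± 0.08 (adjusted p = 0.539). Over the 7 beta genes the summed level was 674, 598 and 568 CPM in Lama4-/- ipsilateral, against 565, 674 and 567 CPM in Lama4-/- contralateral, and 570, 610 and 597 CPM in WT ipsilateral, against 496, 565 and 526 CPM in WT contralateral libraries. The mean sum was 1.91% higher on the stroke side in Lama4-/- and 12.0% higher in WT.

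The inducible subunit Psmb10, which takes the place of Psmb7 in the immunoproteasome, was not called either. It measured 36.3, 33.6 and 32.3 CPM in Lama4-/- ipsilateral, against 31.8, 41.8 and 33.3 CPM in Lama4-/- contralateral, and 30.9, 34.1 and 32.3 CPM in WT ipsilateral, against 24.4, 31.7 and 32.4 CPM in WT contralateral libraries. All groups overlapped, with -0.07 ± 0.12 in Lama4-/- and 0.13 ± 0.12 in WT (SE; edgeR adjusted p = 0.724 and 0.486). Psmb10 had 25.4, 27.3 and 27.4 counts per 100 Psmb7 counts in Lama4-/- ipsilateral, against 26.3, 28.9 and 28.7 in Lama4-/- contralateral, and 25.3, 26.7 and 25.5 in WT ipsilateral, against 23.4, 25.8 and 28.8 in WT contralateral libraries.

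The excluded Psmb8, which takes the place of Psmb5, was called higher in both genotypes. Psmb8 measured 10.4, 9.60 and 6.66 CPM in Lama4-/- ipsilateral, against 3.01, 4.04 and 3.64 CPM in Lama4-/- contralateral, and 6.78, 6.61 and 7.56 CPM in WT ipsilateral, against 2.63, 2.87 and 2.96 CPM in WT contralateral libraries. It was 1.32 ± 0.17 higher on the log2 scale in Lama4-/- (SE; edgeR adjusted p = 0.000119) and 1.31 ± 0.17 higher in WT (adjusted p = 0.000233). Its counts per 100 Psmb5 counts were 30.4, 30.02 and 20.3 in Lama4-/- ipsilateral, against 9.11, 10.0 and 10.5 in Lama4-/- contralateral, and 21.3, 19.9 and 24.0 in WT ipsilateral, against 8.72, 8.95 and 9.30 in WT contralateral libraries. Psmb9, which takes the place of Psmb6, rested on 25 to 77 counts per library and was not called, at 0.32 ± 0.24 in Lama4-/- and 0.54 ± 0.26 in WT (SE; edgeR adjusted p = 0.377 and 0.180). The part of the marker shifts given above in the Psmb8 change was not tested.

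Psma8, the alpha subunit of the testis proteasome, had the largest point estimates but few reads. It held 15, 28 and 17 counts in Lama4-/- ipsilateral, against 9, 17 and 5 in Lama4-/- contralateral, and 16, 32 and 16 counts in WT ipsilateral, against 14, 8 and 11 in WT contralateral libraries. With SE of 0.44 and 0.43, its 0.95 in Lama4-/- and 0.83 in WT were not called (edgeR adjusted p = 0.132 and 0.216).

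The genes that build the proteasome were mixed. Of the 7 assembly chaperones (Psmg1 to Psmg4, which start the alpha ring, and Psmd5, Psmd9 and Psmd10, which hold the ATPases), none was called, with medians of 0.07 in Lama4-/- and 0.18 in WT. Psmg4 had 0.35 ± 0.14 in WT and Psmg2 -0.10 ± 0.09 (SE). Pomp, which escorts the beta ring and has no Psm name, measured 93.4, 91.1 and 88.1 CPM in Lama4-/- ipsilateral, against 86.3, 106.7 and 90.6 CPM in Lama4-/- contralateral, and 85.3, 91.1 and 88.9 CPM in WT ipsilateral, against 80.8, 92.2 and 91.3 CPM in WT contralateral libraries. These overlapped (edgeR adjusted p = 0.650 in Lama4-/- and 0.977 in WT). With libraries of the same number set as pairs (the replicate block), Psmb3, Psmd3 and Psmg4 were called in WT (edgeR adjusted p = 0.0394, 0.0474 and 0.0464) and Psmd1 in Lama4-/- (adjusted p = 0.0488).

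Beyond the subunits, Nfe2l1 measured 438.0, 407.5 and 415.9 CPM in Lama4-/- ipsilateral, against 417.2, 404.3 and 404.8 CPM in Lama4-/- contralateral, and 434.5, 427.6 and 437.9 CPM in WT ipsilateral, against 420.0, 392.5 and 416.4 CPM in WT contralateral libraries. The WT groups did not overlap, yet the 0.08 ± 0.06 was not called (SE; edgeR adjusted p = 0.359), nor was the 0.04 ± 0.06 in Lama4-/- (adjusted p = 0.640). Its protein is regulated after translation by cleavage and degradation, which RNA levels do not show. In the list of 14 genes around Nfe2l1, 2 were called higher in Lama4-/- (14.3%, beside 12.8% of all genes) and 3 in WT (21.4%, beside 9.91%), and none lower. Maff, a small partner of these factors, rose by 2.32 ± 0.43 in Lama4-/- and 1.84 ± 0.42 in WT (SE; edgeR adjusted p = 0.00338 and 0.0152). Nfe2l2, the related antioxidant factor, rose by 0.62 ± 0.11 and 0.40 ± 0.11 (adjusted p = 0.00135 and 0.0232), and Nploc4, a cofactor of the unfoldase Vcp, by 0.30 ± 0.09 in WT (adjusted p = 0.0326). Of 11 proteasome partners without a Psm name, Zfand2a, a proteasome-binding protein known for its induction by arsenite, was called in both genotypes, at 0.47 ± 0.11 in Lama4-/- and 0.51 ± 0.11 in WT (SE; edgeR adjusted p = 0.00608 and 0.00538). It was the only partner called higher, 9.09% of the list in each genotype, beside 12.8% of all genes in Lama4-/- and 9.91% in WT. Of 6 shuttle receptors, which carry ubiquitinated proteins to the cap, Ubqln1 was called higher in both, and Rad23b in WT. That is 16.7% of this list in Lama4-/- and 33.3% in WT, beside the same shares of all genes. The list was mixed: at an unadjusted p under 0.05 by edgeR stood 50% of it in each genotype, with 33.3% higher. Of 6 ubiquitin and E1 genes none was called.

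Between genotypes no member was called. On the stroke side, 0 of 46 were called by edgeR, where 0.00658% of the 15208 genes tested were, and none stood at an unadjusted p under 0.05, where 3.49% of all genes did. The members' median log2 fold change of Lama4-/- over WT was 0.03, where that of all genes was -0.0005. Without Psma8 the members ran from -0.14 to 0.15 with SE of 0.06 to 0.18. Psme1 was the single member that lay higher in every Lama4-/- than in every WT library (2.17%), against 3.84% of all genes, and none lay wholly lower, against 4.18%. DESeq2 and voom also called none, beside 0.145% and 0.00658% of all genes. The members' median rested on Lama4-/- ipsilateral 1 and was -0.04 without it.

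Contralaterally 0 of 46 were called by edgeR, where 0.0134% of 14958 genes were. DESeq2 and voom called none, beside 0.114% and 0.00669% of all genes, nor did edgeR with the replicate block, beside 0.809%. At an unadjusted p under 0.05 stood 4 members (8.7%), Psmb1, Psmb4, Psmb5 and Psmd9, against 9.51% of all genes. Of the 46, 37 were positive, with a median of 0.08, where the median of all genes was 0.01. The beta ring had 0.14 to 0.23 for its 7 genes, and Psmb4, Psmb5 and Psmb1 were among the 5 members that lay higher in every Lama4-/- than in every WT library (10.9%), against 8.35% of all genes. None lay wholly lower, against 7.55%. Without Lama4-/- contralateral 2 the median was 0.03, and without WT contralateral 1 it was 0.05. In the authors' deposited table no member had an adjusted p under 0.05 on either side, and the lowest was 0.367 contralaterally and 1 on the stroke side. No share of all genes in that table is given here, so this says nothing particular to the members.

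The stroke change itself was set against genotype in one model over the 12 libraries. No member was called (0 of 46 by edgeR, DESeq2 and voom), nor was any of the 15351 genes by edgeR (0% called; 244, or 1.59%, at an unadjusted p under 0.05, none of them a member). The difference of the changes, Lama4-/- minus WT, had a median of -0.06 over the members, where the median of all genes was -0.01. It was positive in 10 of 46 members. All 7 beta genes were negative, from -0.20 to -0.10, with Psmb2 at -0.19 ± 0.12 (SE). Psme2 had -0.06 ± 0.15, Psmd11 0.02 ± 0.14, Psmc6 0.00 ± 0.12 and Psma3 0.00 ± 0.10 (SE). The members' median was -0.01 without Lama4-/- contralateral 2 and -0.13 without Lama4-/- ipsilateral 1.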

How the data were processed

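Bulk RNA was measured in 12 libraries. The authors deposited whole-number read counts per gene, made with STAR 2.6.0 and featureCounts 1.6.4 on build mm10, per the submitters' processing notes. For annotation and strandedness nothing is given in the sources used here. A single-cell library kit is named in the labels beside bulk polyA RNA, so whether reads fall along the whole transcript was not settled, and levels are not compared between genes. Reads of overlapping, antisense or near-identical genes cannot be told apart. The deposited log2 fold changes and adjusted p-values come from the authors' comparisons of genotypes within a hemisphere, per the file headers, and are quoted as theirs.

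Counts were fitted with edgeR 4.0.16 in R 4.3.3 (TMM, filterByExpr, robust quasi-likelihood F test), on all 12 libraries for stroke and its difference between genotypes, and on the 6 libraries of a hemisphere for genotype. DESeq2 1.42.0, voom (limma 3.58.1), other scalings, filters, a replicate block and fits without each library were alternatives. The script was tested on simulated counts. The main fits held only the group, so their p-values measure the spread between libraries of a group, each a pool of 2 mice. In the stroke tests same-numbered hemispheres, taken as paired below, counted as separate libraries. The spread of the change within a pool was not measured there. With the replicate block 32% of all genes were called in Lama4-/- and 23.5% in WT, against 23.3% and 15.4% in the main fits.

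Members, lists and motifs were chosen with earlier results of these data known. Named by rule were the 3 catalytic subunits, Psmb10, Psmd14, Psmd4, Adrm1, Pomp, Nfe2l1, the activators, PI31 and every called member. Of called members the rule took up to 5 of the highest and 5 of the lowest per comparison. Psme3 is given by group means, and for Psmb7, Psmd4, Psme4, Psmf1 and Pomp the stroke fold change is not printed. Others outside the rule (Psma8, Psmc5, Psmg2, Psmg4, Maff and further listed genes) were named after their values were seen. Whether same-numbered hemispheres are paired was checked by the correlation of their deviations from group means over 13293 genes: it was 0.184, 0.165 and 0.491 in Lama4-/- and 0.389, 0.455 and 0.319 in WT, so they were taken as paired. Across genotypes the ipsilateral values were -0.164, 0.462 and 0.217, which gives no pairing. The contralateral ones were 0.248, 0.410 and 0.213, while contralateral libraries of unlike number had -0.513 to 0.337 across genotypes. The ranges overlap and the genotypes come from different mice, so no pairing was taken, and the replicate block was fitted there as an alternative. No library duplicated another. Symbols are the files' own, and coordinates are GRCm38.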

Additional observations from a re-analysis of the deposited data

How the results depend on the processing

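For members called higher after stroke the count changed with the setting. In Lama4-/- it was 5, with 2 on the 6 libraries of the genotype alone (4.35%, beside 10.3% of all genes), 8 with library totals in place of TMM (17.4%, beside 18.5%), and 0 to 7 when each library was left out in turn (0 without Lama4-/- ipsilateral 1, 1 without Lama4-/- contralateral 1 or 3). In WT it was 5, with 3 under RLE size factors (6.52%, beside 9.62% of all genes), 3 with no filter (beside 8.06%), 13 on the 6 libraries of the genotype, 13 with library totals, and 0 to 2 without single libraries (0 without WT ipsilateral 3). Library totals were added after seeing the data; they shift the median of all genes to 0.08 in both genotypes. With the replicate block, pairing same-numbered hemispheres, 6 members (13%) were called higher in Lama4-/-, beside 16.2% of all genes, and 7 in WT (15.2%), beside 13.2%; besides the changes given above it altered no member's call. Without Lama4-/- ipsilateral 1 the edgeR adjusted p was 0.0693 for Psmd11, 0.076 for Psme2, 0.115 for Psmc6 and 0.160 for Psma3. Without WT ipsilateral 3 it was 0.103, 0.0552, 0.115 and 0.129 for the same genes. No called change reversed its direction, and between genotypes every setting called 0 members, beside 0.00557% to 0.809% of all genes. The SD of a single member between the 3 libraries of a group, pooled over the 4 groups on the log2 scale, was 0.06 to 0.26, with a median of 0.11.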
